A study of Mus musculus with 12 samples.

Results

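The genes described here are the ligands, receptors and co-receptors of vascular endothelial growth factor (VEGF) signalling in sorted endothelial cells of the embryonic mouse heart. They are 9 of the 41214 genes of the deposited count table and were chosen by name, with earlier results of these data known. The ligands are Vegfa, Vegfb, Vegfc and Pgf, the receptors are Kdr, Flt1 and Flt4, and the co-receptors are the neuropilins Nrp1 and Nrp2. All 9 had a row in the table, and all 9 passed the filter on low counts.

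The study sequenced polyadenylated RNA of 2 endothelial populations, the endocardium that lines the heart chambers and the endothelium of the coronary vessels, at 2 embryonic stages. There were 2 E17 coronary, 2 E17 endocardial, 4 E13 coronary and 4 E13 endocardial libraries. Cells came from ventricles freed of atria and aortic region, and were sorted as living, Ter119- CD45- CD31+ cells, that is, with gates against red cells and leukocytes and for the endothelial protein CD31. E17 embryos, taken at E17.5, carried the transgenes Nes-Gfp and Nes-CreER, each Tg/0, together with R26 (tom/+), and 0.1 ug tamoxifen had been given at E15.5. E13 embryos, taken at E13.5, carried Nes-gfp (Tg/0) alone and had no tamoxifen by the labels. In both stages the green fluorescence used for sorting is driven by nestin regulatory sequence, and the Cre of the E17 embryos is a nestin Cre too. The E17 coronary cells were GFP+ and Emcn-low, and the labels describe one such gate for Tomato+ cells rich in arteries and capillaries and another for Tomato- cells rich in subepicardial veins, without saying which of them the 2 libraries hold. The E17 endocardial gate is written as GFP+. The E13 coronary gate was GFP+, and the E13 endocardial gate was GFP-low with high Emcn. Genotype, tamoxifen, gates and batches all differ between the stages, so a difference between E17 and E13 cannot be told apart from these.

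VEGF signalling starts when a secreted ligand dimer joins a pair of receptor tyrosine kinases on the endothelial surface. Vegfa acts mainly through Kdr, the receptor that carries most of the growth, migration and permeability response, while Flt1 binds Vegfa tightly, signals weakly and is also made as a soluble form that holds the ligand away from Kdr. Vegfb and Pgf bind Flt1, and Vegfc binds Flt4 and, once processed, Kdr. The neuropilins hold ligands beside the receptors and also bind semaphorins. In the mouse heart, Vegfa and Vegfc are known as growth signals for the coronary vessels, and the myocardium is a known source of Vegfa.

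Library totals ran from 14973633 to 27360653 expected counts. No label ties the replicates to separate litters or cultures, and p-values here reflect the spread between the sequenced libraries, which may be technical. As a check of the sorts, 7 general endothelial markers other than Emcn summed to 8753 and 9800.4 normalised counts (CPM, counts scaled to library size) in the E17 coronary libraries, 9255 and 9753 in E17 endocardial, 5045 to 6655 in E13 coronary and 7984 to 8875 in E13 endocardial libraries. The E13 coronary sums lie below all others. Single markers of this list differed in direction between the populations at both stages. A list of 7 endocardial markers summed to 199 and 199.7 CPM in E17 coronary against 5793 and 6044 CPM in E17 endocardial libraries, and to 1215 to 1609.7 CPM in E13 coronary against 4759 to 5044 CPM in E13 endocardial libraries. Not all of them separated the populations at E13. Nfatc1 averaged 231 CPM in E13 coronary against 216 CPM in E13 endocardial libraries, Gata4 256 against 231 CPM and Gata5 47.4 against 53.5 CPM. Markers of other cells were measured as well. The sums of 10 fibroblast markers were 4874 and 2220.2 CPM in E17 coronary, 2474 and 2234 in E17 endocardial, 2747 to 7169 in E13 coronary and 1850.1 to 2082 in E13 endocardial libraries. For 10 mural markers, which label pericytes and smooth muscle, the sums were 858 to 1118 CPM, 177 to 178 CPM, 383 to 767 CPM and 246 to 269 CPM in the same order of groups. Those of 14 cardiomyocyte markers were 261 to 362 CPM, 280.2 to 348 CPM, 136 to 335 CPM and 217 to 376 CPM. Those of 8 epicardial markers were 145 to 157 CPM, 14.1 to 15.7 CPM, 81.5 to 95.3 CPM and 17.1 to 21.3 CPM, and those of 6 neural crest and glial markers were 5.15 to 8.64 CPM, 2.46 to 3.77 CPM, 14.9 to 48.1 CPM and 3.12 to 4.05 CPM. Red cell RNA was measured in every library despite the gate, with sums over 8 markers of 417 to 553 CPM, 96.1 to 484 CPM, 78.4 to 591 CPM and 38.9 to 379 CPM. Those of 8 leukocyte markers were at most 21.01 CPM in any library, and the defining leukocyte gene Ptprc had a count of 0 in both E17 coronary libraries. A marker sum can rest on few genes. In E17 coronary against E17 endocardial libraries, the mural marker Abcc9 averaged 527 against 38.6 CPM, but Pdgfrb 96.1 against 102 CPM. Of the fibroblast markers, Col1a1 averaged 729.9 against 31.3 CPM there, but Dcn 57.3 against 131 CPM and Lum 22.2 against 120.1 CPM. Most of the epicardial sum there was Wt1, at 119 against 9.79 CPM. Tbx18 (12.3 against 0.462 CPM), Aldh1a2 (13.7 against 0.440 CPM) and Krt19 (4.71 against 0.803 CPM) went the same way. Upk3b (0.518 against 1.19 CPM), Upk1b (0.231 against 0.472 CPM), Lrrn4 (0.304 against 1.06 CPM) and Msln (0.660 against 0.657 CPM) were scarce in both populations. In such bulk samples, fewer cells of a type and less RNA per cell cannot be told apart.

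The sequence before the RefSeq start is shown for 4 of the 5 members that were higher at E17 than at E13 in coronary libraries, as the regulatory sequence nearest to these genes. The fifth, Nrp1, is not printed because its window lies within the annotated gene. Only bases outside the annotated exons of the gene are printed. The sequences were taken from RefSeq for build GRCm38.p6, read 5′ to 3′ on the strand of the gene and end next to the start or the first annotated exon. Capitals mark the hypoxia response core (ACGTG or GCGTG) and the ETS core (GGAAG) on either strand.
Vegfa, chr17:46032378-46032627, minus strand: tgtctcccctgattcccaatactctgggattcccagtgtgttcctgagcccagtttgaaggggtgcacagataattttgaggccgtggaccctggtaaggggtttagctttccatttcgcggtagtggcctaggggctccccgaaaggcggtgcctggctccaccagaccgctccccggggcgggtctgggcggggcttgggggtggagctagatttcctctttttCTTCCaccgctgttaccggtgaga
Kdr, chr5:75978459-75978705, minus strand: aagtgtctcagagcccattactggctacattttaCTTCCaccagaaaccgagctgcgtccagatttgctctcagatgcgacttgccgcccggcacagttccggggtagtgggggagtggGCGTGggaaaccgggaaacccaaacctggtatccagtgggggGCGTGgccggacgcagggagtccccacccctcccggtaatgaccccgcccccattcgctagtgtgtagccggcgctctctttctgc
Flt1, chr5:147726012-147726261, minus strand: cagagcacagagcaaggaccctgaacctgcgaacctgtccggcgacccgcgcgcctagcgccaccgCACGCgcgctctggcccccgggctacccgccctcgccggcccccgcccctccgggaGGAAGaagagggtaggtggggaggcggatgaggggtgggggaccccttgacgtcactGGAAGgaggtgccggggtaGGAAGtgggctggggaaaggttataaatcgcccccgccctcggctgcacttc
Nrp2, chr1:62703067-62703284, plus strand: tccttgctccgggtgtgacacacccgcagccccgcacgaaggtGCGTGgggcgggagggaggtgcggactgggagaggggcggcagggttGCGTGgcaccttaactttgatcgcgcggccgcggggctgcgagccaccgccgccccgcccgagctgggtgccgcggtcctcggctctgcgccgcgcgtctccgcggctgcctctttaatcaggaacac
The Kdr sequence holds 2 hypoxia response cores and 1 ETS core, that of Flt1 holds 1 and 3, that of Nrp2 holds 2 and 0, and that of Vegfa holds 0 and 1. Vegfa has 2 RefSeq starts, and the 250 bases before the other one, which lies within the annotated gene, hold 2 hypoxia response cores and 1 ETS core. The window of Nrp1 holds 1 and 3. The hypoxia response core is what hypoxia-inducible factors bind, and the ETS core is bound by the family of Ets1, Erg and Fli1. Over the 250 bases before each of the 11 RefSeq starts of the 9 genes, 7 held a hypoxia response core and 6 an ETS core, while 38.6% and 64.1% of 32851 such windows before mouse starts did. A GC box (GGGCGG, either strand) was in 10 of the 11 windows and in 32.7% of all windows, and TATAAA on either strand was in 1 of them, that of Flt1, and in 12.4% of all windows. A match of letters is a description and shows no binding.

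Coronary libraries had more RNA of most of the 9 genes than endocardial libraries of the same stage. Of the receptors, Kdr, Flt1 and Flt4 were all higher at E17, but only Flt4 was at E13. At E17, 7 of the 9 genes were higher in coronary libraries (Vegfa, Vegfc, Pgf, Kdr, Flt1, Flt4 and Nrp2), 1 was lower (Vegfb), and Nrp1 did not pass the test. At E13, 5 were higher (Vegfa, Vegfc, Pgf, Flt4 and Nrp2), 3 were lower (Vegfb, Kdr and Nrp1), and Flt1 did not pass. So 8 of the 9 passed at each stage, in populations that differed in many genes: among the 15171 genes tested, 52.6% passed at E17, 26.5% as higher and 26.1% as lower in coronary libraries, and 60.0% passed at E13, 30.1% as higher and 29.9% as lower. The median log2 fold change of the members was 1.12 at E17 and 0.53 at E13, beside -0.01 and -0.02 for all genes tested. Fold changes are log2 values from edgeR's quasi-likelihood test with their standard error (SE), p-values are Benjamini-Hochberg adjusted over all 15171 genes with a threshold of 0.05, and a gene that passed is called higher or lower.

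Between the stages, both populations also differed. In coronary libraries, 5 members were higher at E17 than at E13 (Vegfa, Kdr, Flt1, Nrp1 and Nrp2) and 1 was lower (Pgf), where 24.6% of all genes tested were higher, 25.6% lower and 50.1% passed in all. In endocardial libraries, 3 were higher at E17 (Vegfa, Flt1 and Nrp2) and 3 lower (Vegfc, Kdr and Flt4), where 16.2% of all genes were higher, 15.6% lower and 31.8% passed. The difference between the populations was itself tested for a change with stage. It moved in the coronary direction for 5 members (Vegfc, Kdr, Flt4, Nrp1 and Nrp2), against 16.2% of all genes, and in the endocardial direction for 1 (Vegfa), against 16.5%, with 32.7% of all genes passing.

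These values are relative to the whole library. Taken relative to the sum of the 7 general endothelial markers, every gene of a comparison moves by one amount on the log2 scale: by 0.04 for coronary minus endocardial at E17 and 0.56 at E13, by -0.69 for E17 minus E13 in coronary and -0.17 in endocardial libraries, and by -0.53 for the change of the population difference. The relative values are means of log2 values, not fitted ones, and so depart slightly from this, most for Pgf. At E13, the lower Vegfb becomes -0.23, and the higher Vegfc and Flt4 become 1.44 and 1.08. Between the stages in coronary libraries, Kdr becomes 0.69, Nrp2 1.21 and Pgf -1.68, and in endocardial libraries Flt1 becomes 0.23. The change of the population difference becomes 1.60 for Kdr, 0.44 for Vegfc, 0.41 for Nrp1, 0.38 for Nrp2, 0.08 for Flt4 and -1.26 for Vegfa. None of these relative values was tested. They depend on which markers are summed, and the 7 did not move alike. At E17, Tek (-1.37), Tie1 (-0.39) and Eng (-1.38) were lower in coronary libraries, and Pecam1 (0.39), Cdh5 (1.05), Erg (0.36) and Esam (1.16) higher. At E13, Tek (-0.88), Tie1 (-0.86), Eng (-0.99), Pecam1 (-0.26) and Cdh5 (-0.23) were lower in coronary libraries. Erg (0.33) was higher at E13, and Esam (-0.07) did not pass.

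**Figure D1:**
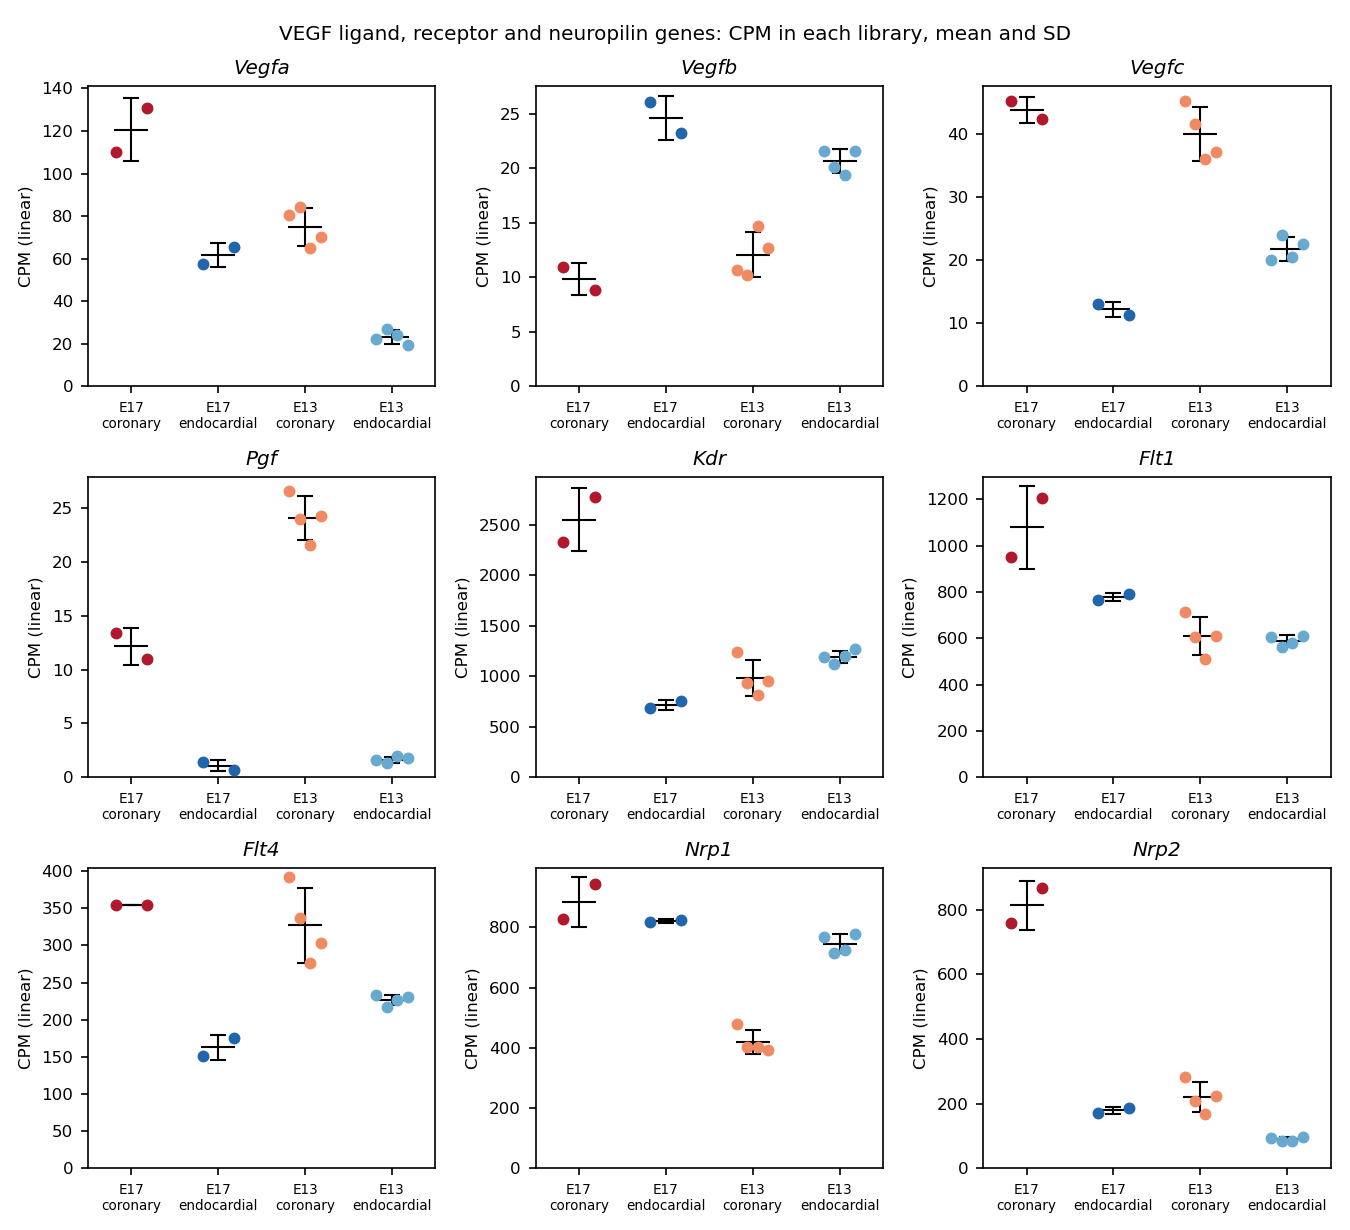
Normalised level (CPM, linear axes from 0) of each of the 9 genes in every library, by group. Points are libraries, and black marks give the group mean and SD. Kdr reached 2327 and 2770.0 CPM in E17 coronary libraries, while every other library was at 1265 CPM or less, and Pgf stayed under 2 CPM in every endocardial library.

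Vegfa, the ligand that drives most endothelial growth, lies at chr17:46016993-46032369 (GRCm38, minus strand). E17 coronary libraries had 110.1 and 131 CPM, against 57.7 and 65.7 CPM in E17 endocardial libraries. At E13, coronary libraries had 80.4, 84.1, 65.05 and 70.3 CPM, against 22.4, 26.8, 24.1 and 19.4 CPM in endocardial libraries. Coronary libraries were above all endocardial libraries of their stage, and every E17 library was above all E13 libraries of its population. Coronary over endocardial, the log2 fold change was 0.97 ± 0.15 at E17 (edgeR adjusted p = 0.000146) and 1.69 ± 0.11 at E13 (adjusted p = 9.15e-08). This gap was smaller at E17 by 0.72 on the log2 scale, a change of -0.72 ± 0.18 (adjusted p = 0.00964) that missed the threshold without E17 endocardial replicate 2 (adjusted p = 0.052) or E17 coronary replicate 1 (adjusted p = 0.0504). From E13 to E17, Vegfa was higher by 0.69 ± 0.12 in coronary (edgeR adjusted p = 0.000593) and by 1.41 ± 0.13 in endocardial libraries (adjusted p = 1.14e-05); set against the summed endothelial markers, the coronary value was -0.01. In order of level, E13 coronary and E17 endocardial libraries are neighbours whose ranges overlap.

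Vegfb, a ligand of Flt1 that is abundant in the heart, lies at chr19:6982473-6987651 (minus strand) and was the only ligand of the 4 that was lower in coronary libraries. It had 10.9 and 8.81 CPM in E17 coronary against 26.03 and 23.2 CPM in E17 endocardial libraries. In E13 libraries it had 10.7, 10.2, 14.7 and 12.7 CPM in coronary against 21.6, 20.1, 19.4 and 21.6 CPM in endocardial ones. No coronary library of either stage reached the lowest endocardial one. The log2 fold change was -1.32 ± 0.17 at E17 (edgeR adjusted p = 3.27e-05) and -0.78 ± 0.12 at E13 (adjusted p = 9.42e-05). Neither stage comparison passed, with -0.30 ± 0.15 in coronary (edgeR adjusted p = 0.121) and 0.25 ± 0.14 in endocardial libraries (adjusted p = 0.192). The change of the population difference was -0.55 ± 0.20 (adjusted p = 0.0576), just short of the threshold.

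Vegfc, the ligand of Flt4 and a growth signal of lymphatic and subepicardial coronary vessels, lies at chr8:54077606-54187096 (plus strand). It had 45.2 and 42.3 CPM in E17 coronary against 13.04 and 11.3 CPM in E17 endocardial libraries. E13 coronary libraries had 45.2, 41.6, 36.00 and 37.1 CPM, against 19.96, 23.97, 20.5 and 22.5 CPM in E13 endocardial libraries. All 6 coronary libraries were above all 6 endocardial libraries, and the coronary ranges of the stages overlap. The log2 fold change of coronary over endocardial libraries was 1.84 ± 0.13 at E17 (edgeR adjusted p = 2.12e-07) and 0.88 ± 0.09 at E13 (adjusted p = 2.68e-06), a widening of 0.96 ± 0.15 (adjusted p = 0.00051). Endocardial Vegfc was lower at E17 than at E13, with -0.83 ± 0.12 (edgeR adjusted p = 0.000215), while coronary Vegfc gave 0.13 ± 0.10 and did not pass (adjusted p = 0.319); relative to the summed endothelial markers that coronary value was -0.56. Its relative Vegfd, listed in older annotation as Figf, was scarce, at 1.89 ± 0.814 CPM in E17 coronary, 1.03 ± 0.545 in E17 endocardial (SD, n = 2 each), 1.49 ± 0.554 in E13 coronary and 0.835 ± 0.211 in E13 endocardial libraries (n = 4 each). It did not pass between the populations at E17 (edgeR, 0.85 ± 0.52, adjusted p = 0.195) or at E13 (0.83 ± 0.37, adjusted p = 0.0691).

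Pgf, placental growth factor, which binds Flt1 and not Kdr, lies at chr12:85166635-85177790 (minus strand) and had the largest gap between the populations among the 9 genes at both stages. It had 13.4 and 10.96 CPM in E17 coronary libraries, against 1.42 and 0.713 CPM, or 26 and 11 counts, in E17 endocardial libraries. E13 coronary libraries had 26.6, 23.99, 21.6 and 24.3 CPM, against 1.58, 1.30, 1.95 and 1.78 CPM in E13 endocardial libraries. The endocardial values are near the low end of what these libraries measure, and no endocardial library came near a coronary one. The log2 fold change was 3.48 ± 0.26 at E17 (edgeR adjusted p = 3.34e-07), and between 3.10 and 4.08 when 1 library was left out. At E13 it was 3.87 ± 0.17 (edgeR adjusted p = 5.2e-09), and the change of the difference, -0.39 ± 0.32, did not pass (adjusted p = 0.392). Coronary Pgf was lower at E17 than at E13 by -0.98 ± 0.18 (edgeR adjusted p = 0.000653), with every E17 coronary library below every E13 one. Endocardial Pgf gave -0.60 ± 0.26 (adjusted p = 0.103), and -1.20 (adjusted p = 0.0239) without E17 endocardial replicate 1.

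Kdr, the main signalling receptor for Vegfa, lies at chr5:75932827-75978458 (minus strand) and showed the largest change of the population difference with stage among the 9 genes. It had 2327 and 2770.0 CPM in E17 coronary libraries, against 681 and 752 CPM in E17 endocardial libraries. At E13 it had 1239, 932, 811 and 951 CPM in coronary libraries, against 1195, 1119.9, 1197 and 1265 CPM in endocardial libraries. E17 coronary libraries stood above all others and E17 endocardial libraries below all others, whereas at E13 coronary replicate 1 lay within the endocardial range and the other 3 lay below it. The log2 fold change was 1.83 ± 0.16 at E17 (edgeR adjusted p = 1.3e-06). At E13 it was -0.28 ± 0.11 (edgeR adjusted p = 0.0417), a call that was lost on leaving out any of 8 of the 12 libraries in turn, with -0.18 (adjusted p = 0.137) without E13 coronary replicate 3, and that turned to 0.27 relative to the summed endothelial markers, which were themselves lower in E13 coronary libraries. Between the stages, the difference moved by 2.11 ± 0.19 (edgeR adjusted p = 7.47e-06). The populations moved apart from both sides: coronary Kdr was higher at E17 by 1.37 ± 0.13 (edgeR adjusted p = 3.39e-06), and endocardial Kdr was lower at E17, with -0.74 ± 0.14 (adjusted p = 0.00159).

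Flt1, the tight-binding receptor that also gives the soluble decoy, lies at chr5:147561604-147726011 (minus strand). Counts per gene do not separate its soluble from its membrane form. E17 coronary libraries had 952 and 1206 CPM, against 767 and 791 CPM in E17 endocardial libraries. E13 coronary libraries had 715, 605, 510.0 and 609 CPM, against 605, 564, 579 and 612 CPM in E13 endocardial libraries. The populations do not overlap at E17 and overlap fully at E13, where the coronary libraries spread on either side of the endocardial ones. The log2 fold change at E17 was 0.47 ± 0.13 (edgeR adjusted p = 0.0102), and it missed the threshold without E17 coronary replicate 2, at 0.29 (adjusted p = 0.127), or E17 endocardial replicate 1, at 0.45 (adjusted p = 0.0585). At E13 it was 0.05 ± 0.09 (edgeR adjusted p = 0.688), and -0.01 without E13 coronary replicate 1. Flt1 was higher at E17 than at E13 by 0.82 ± 0.11 in coronary (edgeR adjusted p = 7e-05), or 0.13 relative to the summed endothelial markers, and by 0.40 ± 0.11 in endocardial libraries (adjusted p = 0.0177). The endocardial call was lost without either E17 endocardial replicate, with adjusted p of 0.0775 and 0.11. The change of the population difference was 0.42 ± 0.16 (edgeR adjusted p = 0.0656); with the batch as a replicate block it passed, at 0.42 (adjusted p = 0.0323), and relative to the summed endothelial markers it was -0.10.

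Flt4, the receptor for Vegfc, which marks lymphatic and sprouting endothelium, lies at chr11:49609263-49652739 (plus strand). E17 coronary libraries had 354 and 354 CPM, against 151 and 175 CPM in E17 endocardial libraries. E13 coronary libraries had 392, 337, 276 and 303 CPM, against 233, 217, 227 and 230.1 CPM in E13 endocardial libraries. Every coronary library was above every endocardial one, and both E17 coronary values lie within the E13 coronary range. The log2 fold change was 1.12 ± 0.13 at E17 (edgeR adjusted p = 1.44e-05) and 0.53 ± 0.09 at E13 (adjusted p = 0.000284). Their difference, 0.60 ± 0.16, passed (edgeR adjusted p = 0.0119), but not without E17 endocardial replicate 1, at 0.49 (adjusted p = 0.0724). Endocardial Flt4 was lower at E17 than at E13, with -0.48 ± 0.11 (edgeR adjusted p = 0.00667), and gave -0.38 (adjusted p = 0.0979) without that same library. Coronary Flt4 gave 0.12 ± 0.11 between the stages (edgeR adjusted p = 0.412), and -0.57 relative to the summed endothelial markers. The 6 lymphatic markers, of which Flt4 is one and the most abundant in each group, summed to 378 and 388 CPM in E17 coronary, 339 and 418 in E17 endocardial, 339 to 452 in E13 coronary and 279 to 296 CPM in E13 endocardial libraries, with 2 higher and 2 lower in coronary libraries at E17, and 4 higher and 1 lower at E13. Flt4 itself is among the markers counted as higher at both stages. Over all genes tested, 26.5% were higher and 26.1% lower at E17, and 30.1% and 29.9% at E13. The part of the lymphatic markers in the level of Flt4 was not tested.

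Nrp1, the neuropilin that pairs with Kdr for Vegfa, lies at chr8:128358604-128503363 (plus strand). E17 coronary libraries had 826 and 943 CPM, against 816 and 825 CPM in E17 endocardial libraries. E13 coronary libraries had 480.0, 402, 402 and 393 CPM, against 767, 713, 724 and 776 CPM in E13 endocardial libraries. The E13 coronary libraries were far below the other 8 libraries, which spanned 713 to 943 CPM. Coronary over endocardial log2 fold changes were 0.11 ± 0.10 at E17, which did not pass (edgeR adjusted p = 0.371), and -0.83 ± 0.07 at E13 (adjusted p = 6.83e-07), or -0.27 relative to the summed endothelial markers. That difference moved by 0.94 ± 0.12 between the stages (edgeR adjusted p = 8.84e-05). Coronary Nrp1 was higher at E17 by 1.08 ± 0.08 (edgeR adjusted p = 6.26e-07), or 0.38 relative to those markers, whereas endocardial Nrp1 gave 0.14 ± 0.08 (adjusted p = 0.23), and -0.03 relative to the markers. A microRNA gene, Mir1903, overlaps Nrp1 and had a count of 0 in all libraries.

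Nrp2, the neuropilin known for veins and lymphatics and for binding Vegfc, lies at chr1:62703285-62818695 (plus strand). E17 coronary libraries had 760.1 and 867 CPM, against 172 and 187 CPM in E17 endocardial libraries. E13 coronary libraries had 282, 209.5, 168 and 224 CPM, against 94.5, 84.4, 84.5 and 96.3 CPM in E13 endocardial libraries. The groups do not overlap between populations at either stage or between stages in either population; only E13 coronary and E17 endocardial libraries share a range. Coronary over endocardial log2 fold changes were 2.18 ± 0.18 at E17 (edgeR adjusted p = 8.87e-07) and 1.30 ± 0.13 at E13 (adjusted p = 2.74e-06), and they differed by 0.88 ± 0.21 (adjusted p = 0.00741). From E13 to E17, Nrp2 was higher by 1.88 ± 0.14 in coronary (edgeR adjusted p = 7.37e-07) and by 1.00 ± 0.15 in endocardial libraries (adjusted p = 0.000333). The libraries do not mark strand, and the antisense gene Gm29083 within Nrp2 had 0 to 3 counts per library.

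**Figure D2:**
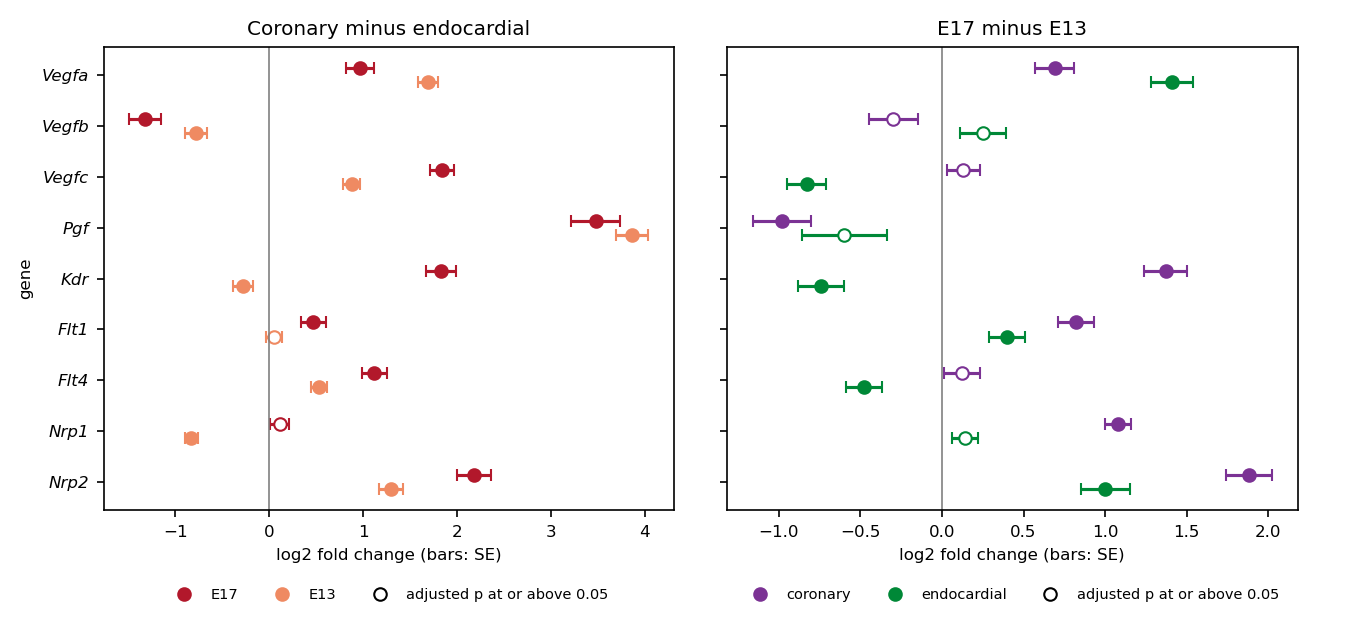
Log2 fold change of each gene with its SE, for coronary minus endocardial libraries at E17 and E13 (left) and for E17 minus E13 in coronary and endocardial libraries (right), from edgeR. Filled points passed the adjusted p threshold of 0.05 and open ones did not. Kdr lies on opposite sides of 0, at 1.83 for E17 and -0.28 for E13, though the E13 value is 0.27 relative to the summed endothelial markers, and Nrp2 is above 0 in all 4 comparisons.

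Among the E13 coronary libraries, the members varied together. Replicate 1 was the highest of the 4 for 7 of the 9 genes (Vegfc, Pgf, Kdr, Flt1, Flt4, Nrp1 and Nrp2), and replicate 3 was the lowest for 7 (Vegfa, Vegfc, Pgf, Kdr, Flt1, Flt4 and Nrp2). Replicate 3 also had the highest fibroblast marker sum, 7169 CPM, and the lowest general endothelial sum, 5045 CPM, while replicate 1 had 2747 and 6655 CPM. The part of other cells in the differences of the members was not tested.

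Levels of different genes were compared as CPM per kilobase of annotated exon. Receptor genes together were at 405 ± 47.9 CPM per kilobase in E17 coronary and 157 ± 8.86 in E17 endocardial libraries (SD, n = 2 each), and at 194 ± 32.02 in E13 coronary and 203 ± 8.72 in E13 endocardial libraries (n = 4 each). Kdr made up 69.6% of this receptor sum in E17 coronary, 50.6% in E17 endocardial, 56.1% in E13 coronary and 64.98% in E13 endocardial libraries. Flt1 took its largest share in E17 endocardial libraries, 36.8%, against 19.7% in E17 coronary, 23.4% in E13 coronary and 21.5% in E13 endocardial libraries. The share of Flt4 was highest in E13 coronary libraries, at 20.5%, against 10.7% in E17 coronary and 12.6% in E17 endocardial libraries. With the longest transcript in place of all exons, the receptor sums were 643 in E17 coronary, 259.8 in E17 endocardial, 307 in E13 coronary and 323 CPM per kilobase in E13 endocardial libraries, and 31 of the 36 levels per length of the members moved by more than the replicate SD. With that length, Kdr and Flt1 held 46.5% and 43.5% of the receptor sum in E17 endocardial libraries, so their balance there depends on the length used.

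Ligand genes together were less abundant than receptor genes in every group, at 56.3 ± 1.09 CPM per kilobase in E17 coronary and 35.1 ± 0.589 in E17 endocardial libraries (SD, n = 2 each), and at 49.7 ± 3.01 in E13 coronary and 27.7 ± 0.945 in E13 endocardial libraries (n = 4 each). Vegfa was the leading ligand in coronary libraries, with 49.9% of the ligand sum at E17 and 35.2% at E13. In endocardial libraries Vegfb held 43.7% at E17, beside 41.1% for Vegfa, and 46.5% at E13, beside 19.5% for Vegfa. Vegfc held 31.7% in E17 coronary, 14.2% in E17 endocardial, 32.8% in E13 coronary and 31.9% in E13 endocardial libraries. Pgf held 7.47% and 16.7% in E17 and E13 coronary libraries, and 1.04% and 2.06% in E17 and E13 endocardial libraries. Of the neuropilin sum, Nrp2 made up 43.2% in E17 coronary, 15.3% in E17 endocardial, 30.1% in E13 coronary and 9.06% in E13 endocardial libraries. With the longest transcript, its E17 coronary share was 33.3% and its E17 endocardial share 10.6%.

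**Figure D3:**
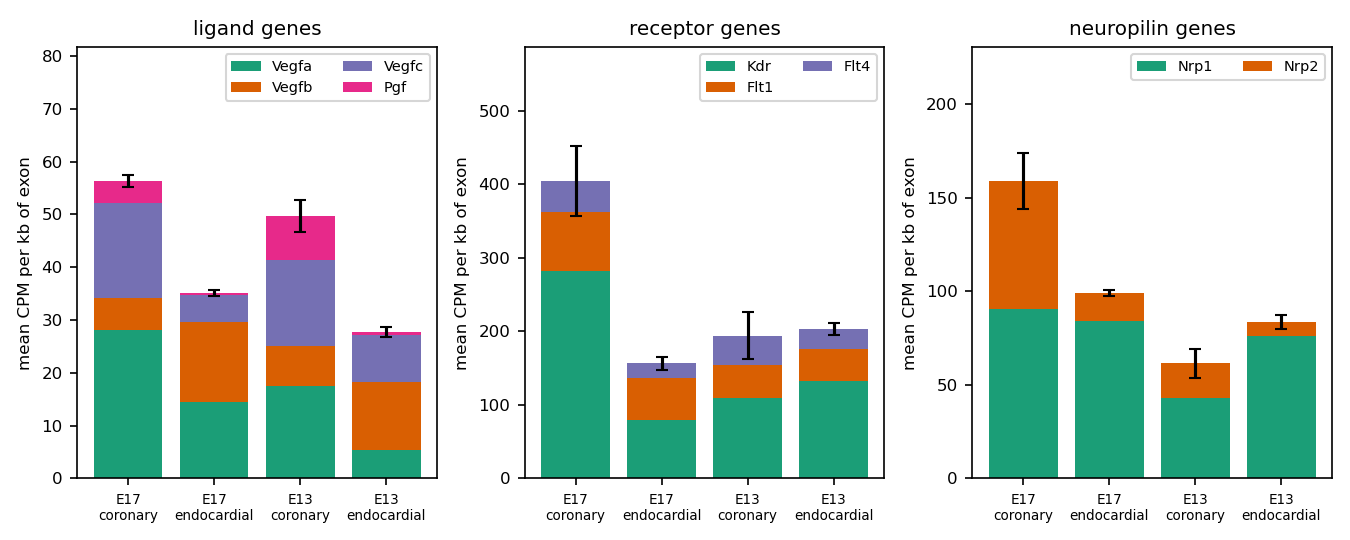
Mean level per kilobase of exon (CPM per kb, linear axis from 0) of the ligand, receptor and neuropilin genes, stacked by gene in each group. Error bars give the SD of the family sum over libraries. The E17 coronary receptor sum, 405 CPM per kb, is the tallest receptor bar, and most of it is Kdr.

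Ratios within a library depend little on the scaling of that library, apart from the 0.5 CPM added to each value, which matters for low genes. With 1 CPM added, the coronary minus endocardial difference of Pgf over Vegfa was 1.74 in place of 2.09 at E17 and 1.59 in place of 1.85 at E13. The log2 ratio of Nrp2 over Nrp1 was -0.12 in both E17 coronary libraries, against -2.25 and -2.14 in E17 endocardial libraries. At E13 it was -0.77, -0.94, -1.25 and -0.81 in coronary libraries, against -3.01, -3.07, -3.09 and -3.00 in endocardial libraries. The coronary minus endocardial difference was of like size at the stages, 2.07 at E17 and 2.10 at E13. In contrast, the log2 ratio of Flt1 over Kdr was -1.29 and -1.20 in E17 coronary against 0.17 and 0.07 in E17 endocardial libraries, a difference of -1.37. In E13 libraries it was -0.79, -0.62, -0.67 and -0.64 in coronary against -0.98, -0.99, -1.05 and -1.05 in endocardial ones, a difference of 0.33. Relative to Kdr, Flt1 was thus lower in coronary than in endocardial libraries at E17 and higher at E13. Over Vegfa, Vegfb averaged -3.55 in E17 coronary, -1.31 in E17 endocardial, -2.59 in E13 coronary and -0.15 in E13 endocardial libraries on the log2 scale. Exact permutation tests (two-sided) over libraries cannot pass here. With 24 such tests, 4 against 4 libraries allow no p below 0.0286, which all 6 ratios reached at E13 and which adjusts to 0.0941. With 2 against 2 the smallest p is 0.333, and with 2 against 4 it is 0.0667.

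**Figure D4:**
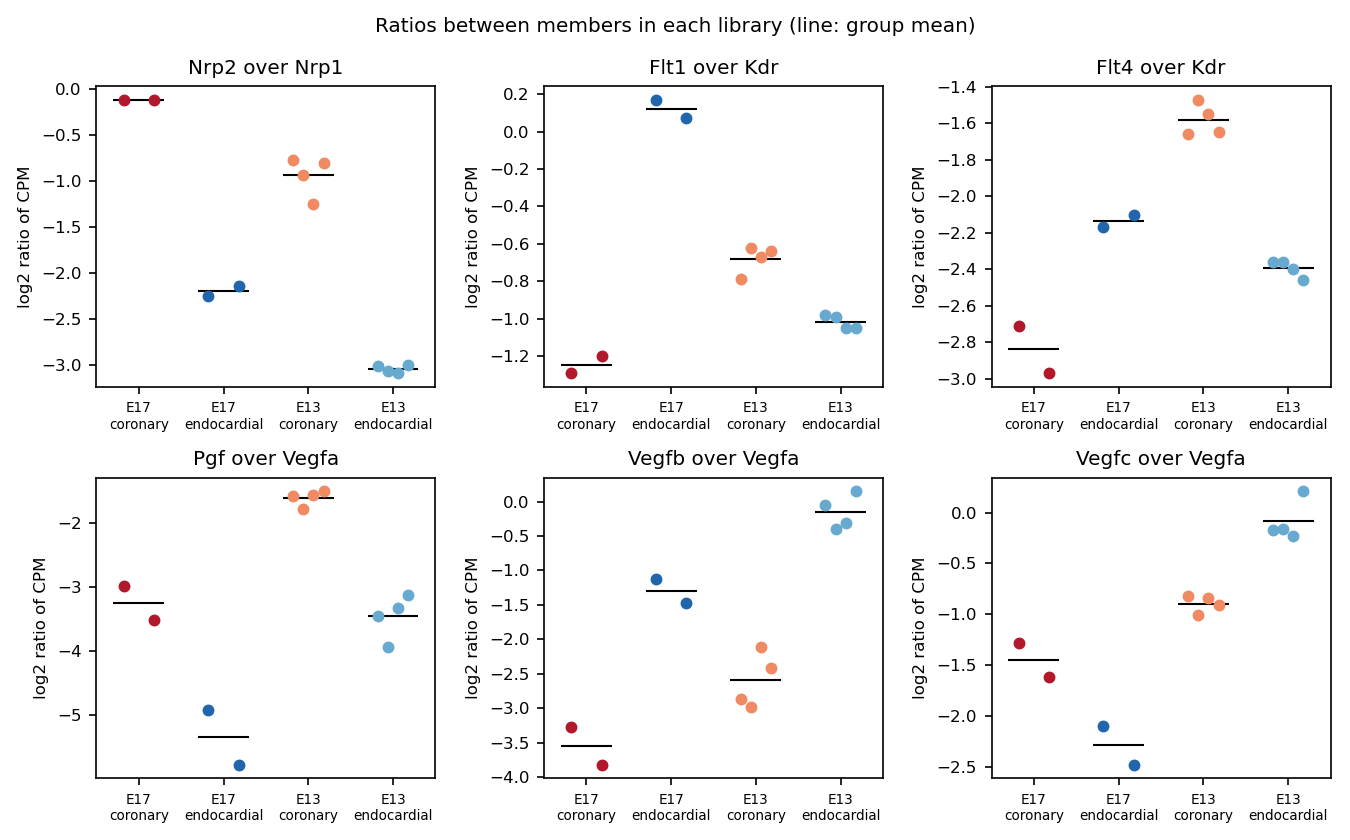
Log2 ratio of the CPM of 2 members, with 0.5 CPM added to each, in every library. Points are libraries and lines are group means. Nrp2 over Nrp1 is higher in coronary than in endocardial libraries at both stages, while Flt1 over Kdr is lower in coronary libraries at E17 and higher at E13.

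Other genes that shape VEGF receptor activity moved in both directions. Of 26 co-receptors, phosphatases and trafficking partners of the receptors, all tested, 10 were higher and 6 lower in coronary than in endocardial libraries at E17, and 7 higher and 11 lower at E13. Their median log2 fold change was -0.03 at E17 and -0.09 at E13, beside -0.01 and -0.02 over all genes. Among all genes tested, 26.5% were higher and 26.1% lower at E17, and 30.1% and 29.9% at E13. Ptprb, the endothelial phosphatase that restrains Kdr and Tie2 signalling, had 721 ± 61.8 CPM in E17 coronary and 199 ± 10.7 CPM in E17 endocardial libraries (SD, n = 2 each), a log2 fold change of 1.86 ± 0.11 (edgeR adjusted p = 7.26e-08). It had 684 ± 81.3 CPM in E13 coronary and 171 ± 5.78 CPM in E13 endocardial libraries (n = 4 each), a log2 fold change of 2.00 ± 0.08 (edgeR adjusted p = 3.82e-09). Itgb3, an integrin subunit that joins Kdr, was higher in E13 coronary libraries by 2.95 ± 0.12 (edgeR adjusted p = 4.57e-09). Among genes of receptor uptake, Dab2, a clathrin adaptor, gave -1.82 ± 0.09 at E17 (edgeR adjusted p = 1.65e-08), and Myo6, a motor for endocytic vesicles, gave -1.12 ± 0.05 at E13 (adjusted p = 1.1e-08). Emcn, whose protein was used in the gates and is known to act on Kdr uptake, gave -2.17 ± 0.14 at E17 (edgeR adjusted p = 1.24e-07). The most abundant genes of the list that did not pass were Hsp90aa1 at E17 (-0.07 ± 0.14, adjusted p = 0.678) and Hspg2 at E13 (0.02 ± 0.08, adjusted p = 0.837). Between the stages, 11 of the 26 were higher and 6 lower at E17 in coronary libraries, and 7 higher and 6 lower in endocardial libraries. The shares over all genes between stages were 24.6% higher and 25.6% lower in coronary, and 16.2% and 15.6% in endocardial libraries.

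Of 42 genes that carry the signal from the receptors, 21 were higher and 8 lower in coronary libraries at E17, and 15 higher and 11 lower at E13, with median log2 fold changes of 0.25 and 0.03, beside -0.01 and -0.02 over all genes. Over all genes tested, 26.5% were higher and 26.1% lower at E17, and 30.1% and 29.9% at E13, so the E13 counts are near the background. Pik3cb, a catalytic subunit of PI3 kinase, was higher in coronary libraries by 3.33 ± 0.22 at E17 (edgeR adjusted p = 1.19e-07) and 3.26 ± 0.16 at E13 (adjusted p = 1.28e-08). Plcg1, the phospholipase that Kdr recruits, had 389.9 ± 11.1 CPM in E17 coronary against 212 ± 10.2 CPM in E17 endocardial libraries (SD, n = 2 each), a log2 fold change of 0.88 ± 0.06 (edgeR adjusted p = 2.73e-07). Itpr2, a calcium release channel, was lower in coronary libraries, with -1.28 ± 0.06 at E17 (edgeR adjusted p = 9.93e-09) and -1.27 ± 0.04 at E13 (adjusted p = 1.45e-09), and the adaptor Shc1 gave -0.70 ± 0.05 at E13 (adjusted p = 1.83e-07). Nos3, the endothelial nitric oxide synthase, did not pass at E17 (-0.02 ± 0.11, adjusted p = 0.868), nor did Cdc42, a small GTPase, at E13 (0.01 ± 0.05, adjusted p = 0.878). The stage comparison gave 19 higher and 8 lower at E17 in coronary libraries, with a median of 0.09, and 6 higher and 4 lower in endocardial libraries. Beside these stand 24.6% higher and 25.6% lower of all genes in coronary, and 16.2% and 15.6% in endocardial libraries.

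Of 25 genes known to be induced by VEGF in endothelial cells, 11 were higher and 6 lower in coronary libraries at E17, and 12 higher and 4 lower at E13, with median log2 fold changes of 0.15 and 0.27. The 4 lower at E13 were Rcan1, Dusp4, Adamts1 and Stc1. Among all genes tested, 26.5% were higher and 26.1% lower at E17, and 30.1% and 29.9% at E13. Esm1, a secreted proteoglycan of sprouting tips, gave 3.65 ± 0.23 at E13 (edgeR adjusted p = 7.7e-08). Spry1, a brake on receptor kinase signalling, gave 3.15 ± 0.24 at E17 (edgeR adjusted p = 4.87e-07) and 2.46 ± 0.18 at E13 (adjusted p = 2.31e-07). Plaur, the urokinase receptor, gave 1.82 ± 0.11 at E13 (edgeR adjusted p = 4.23e-08). Mef2c and Ets1, both transcription factors, gave 1.71 ± 0.12 (adjusted p = 2.8e-07) and 1.38 ± 0.11 (adjusted p = 7.14e-07) at E17 in edgeR, whereas at E13 Ets1 gave -0.12 ± 0.08 (adjusted p = 0.201). Egr1, an immediate early gene, did not pass at E17 (-0.90 ± 0.47, adjusted p = 0.127). With stage, this list moved mostly upward: 15 were higher and 1, Rcan1, lower at E17 in coronary libraries, with a median log2 fold change of 0.77. In endocardial libraries 14 were higher and 3 lower (Ets1, Stc1 and Mef2c), with a median of 0.76. The medians over all genes were -0.02 and 0.00. Of all genes tested, 24.6% passed upward and 25.6% downward in the coronary stage comparison, against 16.2% and 15.6% in the endocardial one. Egr1 varied widely among E13 endocardial libraries, at 541 ± 298 CPM (SD, n = 4). Batch, genotype and tamoxifen change with stage too, and whether VEGF accounts for the upward shift was not tested.

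**Figure D5:**
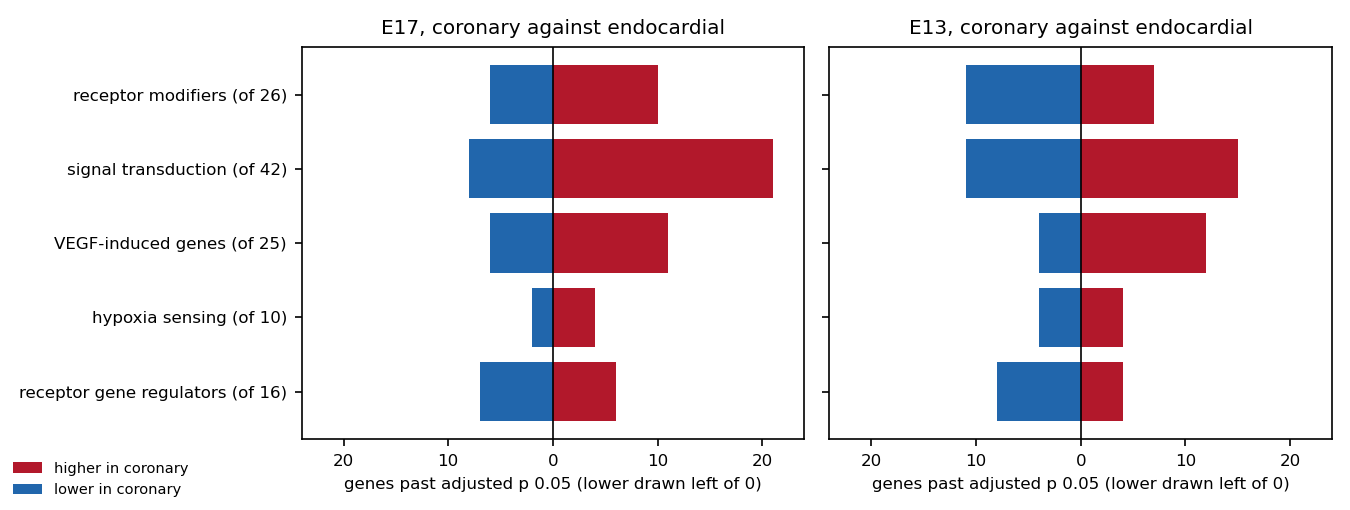
Number of genes of 5 VEGF pathway lists that were higher (red, right of 0) or lower (blue, left of 0) in coronary than in endocardial libraries at E17 (left) and at E13 (right), with adjusted p under 0.05 in edgeR. The signal transduction list holds 21 higher and 8 lower genes at E17 and 15 higher and 11 lower genes at E13.

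The hypoxia sensing genes that act upstream of Vegfa did not move as a block. At E17, 4 of 10 were higher in coronary libraries (Hif1a, Epas1, Egln1 and Egln3) and 2 lower (Hif3a and Egln2), and at E13, 4 were higher (Hif1a, Arnt2, Egln1 and Egln3) and 4 lower (Epas1, Hif3a, Arnt and Hif1an). The median log2 fold change was 0.06 at E17 and -0.06 at E13. Among all genes tested, 26.5% were higher and 26.1% lower at E17, and 30.1% and 29.9% at E13. Epas1, the endothelial hypoxia-inducible factor, had 918 ± 78.2 CPM in E17 coronary and 529.9 ± 1.70 CPM in E17 endocardial libraries (SD, n = 2 each), against which it had 315 ± 54.8 CPM in E13 coronary and 447 ± 27.4 CPM in E13 endocardial libraries (n = 4 each). Its log2 fold change was 0.79 ± 0.14 at E17 (edgeR adjusted p = 0.000501) and -0.50 ± 0.10 at E13 (adjusted p = 0.000881). Egln1, an oxygen-sensing hydroxylase, was higher in coronary libraries by 1.59 ± 0.13 at E17 (edgeR adjusted p = 9.5e-07). Hif3a, a relative with forms known to restrain the other factors, was lower, with -1.23 ± 0.15 at E17 (edgeR adjusted p = 2.33e-05) and -2.04 ± 0.11 at E13 (adjusted p = 2.23e-08). Arnt2, a partner subunit, gave 3.14 ± 0.21 at E13 (edgeR adjusted p = 1.05e-07), and Arnt gave -0.46 ± 0.04 (adjusted p = 6.64e-07). Arnt at E17 (0.12 ± 0.05, adjusted p = 0.0855) and Egln2 at E13 (-0.07 ± 0.05, adjusted p = 0.264) did not pass. In coronary libraries Epas1, Hif3a, Arnt and Egln1 were higher and Arnt2 and Hif1an lower at E17 than at E13, and in endocardial libraries Egln3 was higher and Hif1an lower. All genes tested gave 24.6% higher and 25.6% lower between stages in coronary, and 16.2% and 15.6% in endocardial libraries.

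Among 16 transcription factors known to act on Kdr, Flt1 or Flt4, 6 were higher and 7 lower in coronary libraries at E17, with a median log2 fold change of 0.08, and 4 were higher (Erg, Sox17, Sox18 and Mef2c) and 8 lower at E13, with a median of -0.18. Shares over all genes tested were 26.5% higher and 26.1% lower at E17, and 30.1% and 29.9% at E13. Nr2f2, the venous factor also known as COUP-TFII, gave -1.87 ± 0.07 at E17 (edgeR adjusted p = 1.34e-09) and -1.70 ± 0.05 at E13 (adjusted p = 5.48e-10). Foxc1, a forkhead factor, gave -3.43 ± 0.14 at E17 (edgeR adjusted p = 3.34e-09) and -1.83 ± 0.09 at E13 (adjusted p = 1.24e-08), and Prox1 gave -3.25 ± 0.17 at E17 (adjusted p = 2.37e-08). Sox17, an arterial factor, was higher in coronary libraries at E13 by 3.13 ± 0.19 (edgeR adjusted p = 5.41e-08). Sox7 at E17 did not pass (0.28 ± 0.13, adjusted p = 0.0981). With stage, 7 were higher and 6 lower at E17 in coronary libraries, and 4 were higher (Erg, Gata2, Prox1 and Foxc1) and 4 lower (Etv2, Ets1, Mef2c and Foxc2) in endocardial libraries. The stage shares over all genes were 24.6% higher and 25.6% lower in coronary, and 16.2% and 15.6% in endocardial libraries. For the change of the population difference with stage, 6 of the 16 factors passed upward and 4 downward (Gata2, Prox1, Foxc1 and Foxc2). The same counts were 7 and 7 of the 26 receptor modifiers, 19 and 8 of the 42 signal genes, 6 and 5 of the 25 induced genes and 4 and 2 of the 10 hypoxia genes. Among all genes tested, 16.2% passed upward and 16.5% downward. The 5 induced genes that passed downward were Rcan1, Dusp4, Dusp5, Plaur and Angpt2. The hypoxia genes were Epas1, Hif3a, Arnt and Egln1 upward and Arnt2 and Egln3 downward.

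Genes with the pattern most like that of each member over the 4 groups were found by the root mean square difference of centred log2 CPM means, among 9864 genes. These are likenesses over 4 group means only. Nearest to Vegfa was Arhgef28 (0.067), a guanine exchange factor, followed by Tinagl1 (0.119) and Egln3 (0.122), a hypoxia-induced hydroxylase. Nearest to Pgf was Esm1 (0.177), then Tpm2 (0.231) and Pcdh18 (0.266). Kdr was nearest to Rasgrp2 (0.107), an activator of Rap proteins, then Grap (0.127) and Prex2 (0.142). For Nrp2 the nearest were Tspan13 (0.073), Nptxr (0.118) and Clec9a (0.127), and for Nrp1 they were Nmi (0.055), Cd93 (0.063), an endothelial surface protein, and Cmtm6 (0.068). Vegfc was nearest to Cenpe (0.058) and Kif22 (0.064), both motor proteins of mitosis, and to Prex1 (0.068). Flt4 was nearest to Gjc1 (0.035), a connexin, Usp1 (0.039), a deubiquitinase, and Pole (0.043), a DNA polymerase subunit. Vegfb was nearest to Tmem170b (0.038) and Glb1l (0.038). The group means of Flt1 spanned 0.86 on the log2 scale, less than the span of 1 asked for, so no neighbours were taken.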

How the data were processed

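Expression was measured by RNA sequencing in 12 libraries, 1 coronary and 1 endocardial library in each of 6 batches, with 4 batches at E13 and 2 at E17. The authors deposited an expected count for each gene and library, made, per the submitters' processing notes, with CASAVA 1.8.2, cutadapt 1.3, RSEM 1.2.3 and build GRCm38. What each tool did, and with which settings, is not stated in the labels. RSEM shares out reads that fit several genes by estimate, and 18.3% of all values are not whole; 4 of the 9 members had values that are not whole. Library kits did not mark strand, per the labels' protocols.

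After rounding the expected counts, low genes were removed with filterByExpr (minimum count 10, minimum total 15, 15171 genes left), and edgeR 4.0.16 in R 4.3.3 was run with TMM scaling and 1 mean per group over all 12 libraries (8 residual degrees of freedom, common biological coefficient of variation 0.126). CPM use TMM-scaled library sizes. The groups of 2 libraries borrow the spread of all groups. Ratios used log2(CPM + 0.5). The test was also run on simulated data in which few genes changed, only in E13 coronary libraries. That run does not cover differences as wide as those in these data. Gene symbols, exon lengths and coordinates are from GENCODE for GRCm38. Fold changes relative to the endothelial markers divide CPM by the summed CPM of Pecam1, Cdh5, Tek, Tie1, Erg, Eng and Esam, a choice made after the data were seen.

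The members and lists were chosen with earlier results of these data known. Named genes are the 9 members and, per pathway list and population comparison, the 3 that passed with the smallest adjusted p, the most abundant one that did not, and all of counts of 5 or fewer; likenesses are the 3 nearest genes. A few genes that fall under this rule are not reported here. The batch label pairs the libraries: deviations from group means, across 9481 genes, correlated at 0.377, 0.682, 0.367 and 0.478 within the E13 batches and from -0.508 to 0.439 between them. Genes are not independent replicates. At E17 the value was 0.38 within and -0.38 between batches, which 2 libraries per group fix up to the sign. Alternatives were RLE and upper quartile scaling, DESeq2 1.42.0, no filter, a fit of only the groups compared, the batch as a replicate block, a second gene length, a pseudocount of 1 and leaving out each library. Replicates differed by more than counting noise (chi-square per gene 4.39 to 39.3). Sequences of promoters are from RefSeq; they were matched by symbol for all 9 members.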

Additional observations from a re-analysis of the deposited data

Results flagged for a closer look

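In E13 coronary libraries, Nrp1 had 480.0 CPM in replicate 1, while the other 3 had 393 to 402 CPM. The gap to the nearest library took up 0.904 of the range of the group, above the 95% critical value of Dixon's test for 4 libraries. In E13 endocardial libraries the log2 ratio of Vegfc over Vegfa was 0.21 in replicate 4 and between -0.23 and -0.16 in the other 3, a gap of 0.834 of the range. Chance alone gives such a gap in about 1 of 20 groups, and these were 2 of 30 groups examined.

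The coronary minus endocardial log2 fold change differed between E17 and E13 for 6 members by the stage-by-population term of edgeR. It changed by 2.11 for Kdr, 0.96 for Vegfc, 0.94 for Nrp1, 0.88 for Nrp2 and 0.60 for Flt4, and by -0.72 for Vegfa. The values of Kdr, Vegfc, Nrp1 and Nrp2 passed without any single library, and those of Flt4 and Vegfa did not.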

How the results depend on the processing

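Under the alternatives, 790 log2 fold changes of members kept their direction and, where tested, their side of the threshold. Another 18 lost a call, 12 gained one and 8 changed sign. The 45 values relative to the summed endothelial markers are among these counts and were judged by direction alone. Leaving out 1 library at a time gave 7 to 8 members called between populations at E17 and at E13, 6 to 7 between stages in coronary and 5 to 6 in endocardial libraries, and 5 to 8 for the stage change. Genes called between stages in endocardial libraries were 4830, and 2928 or 3178 without E17 endocardial replicate 1 or 2 (range 2928 to 5211). The other ranges were 6502 to 8180 (E17), 8417 to 9190 (E13), 5557 to 7715 (coronary stage) and 3568 to 5343 (stage change). Leaving out a library turned the sign of 2 values that had not passed: Flt1 at E13 ranged from -0.01 (without E13 coronary replicate 1) to 0.14, and the stage change of Pgf from -0.77 to 0.22 (without E17 endocardial replicate 1). Relative to the summed endothelial markers, every gene of a comparison moves alike (by 0.56 at E13, -0.69 and -0.17 between stages in coronary and endocardial libraries, -0.53 for the stage change), and 6 values smaller than that or nearly so turned: Kdr at E13 to 0.27, endocardial stage Nrp1 to -0.03, coronary stage Vegfa to -0.01, Vegfc to -0.56 and Flt4 to -0.57, and the stage change of Flt1 to -0.10. Kdr at E13 also missed the threshold with RLE scaling (adjusted p = 0.0546) and in the fit of only the groups compared (0.0587). With the batch as a replicate block, the paired fit changed 1 call of the members, the stage change of Flt1 (0.42, adjusted p = 0.0323); DESeq2 (0.0272) and no filter (0.0489) did so too. All 180 alternatives of the ratios kept their sign. With 2 E17 libraries per group, E17 values rest on few libraries. The causes of the other shifts were not tested.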
